A study of Mus musculus with 9 samples.

Results

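The phagocyte NADPH oxidase subunits described here were the 6 genes Cybb, Cyba, Ncf1, Ncf4, Rac1 and Rac2, found by their symbols among the 54532 genes of the deposited expression table. Each symbol matched a single row. Expression was measured by RNA-seq of poly-A selected RNA in RAW264.7 cells, a wild-type mouse macrophage line that the labels trace to ascites, in 3 groups of 3 libraries. Control cells were untreated, LPS cells received lipopolysaccharide, a bacterial surface glycolipid that activates macrophages, at 1 μg/ml for 6 h, and LPS + G-CDs cells received the same LPS together with carbon dots made from Glycyrrhiza (G-CDs) at 400 μg/ml for 6 h. For the LPS + G-CDs libraries, G-CDs appear in the sample titles and LPS is the sole agent in the treatment label, and G-CDs without LPS were not analysed here. The source is 1 cell line, and nothing in the labels says whether the 3 libraries of a group came from separate cultures, so p-values measure the spread between these libraries, which may be technical.

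The phagocyte oxidase moves electrons from NADPH across the membrane onto oxygen and so makes superoxide, the radical that superoxide dismutase and its mimics remove. Its catalytic core is a membrane heterodimer of gp91phox (Cybb) and p22phox (Cyba). In resting cells the organizer p47phox (Ncf1) and p40phox (Ncf4) wait in the cytosol, and on stimulation they join the membrane pair together with a Rac GTPase loaded with GTP. Macrophages use the enzyme to kill ingested microbes and to make oxidants that act as signals. The comparisons asked which of these transcripts changed with LPS and which changed when G-CDs, described by the study as a superoxide dismutase mimic, were added.

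The set of RefSeq (GRCm38.p6) promoter sequences used here covered 3 of the 6 subunits, Cybb, Cyba and Ncf1. The 3 windows are shown because the first of these genes moved with LPS and the other 2 did not pass the test. Each window runs 5′ to 3′ on the strand of the gene from 250 bases before to 50 bases after the RefSeq start site. Capitals mark matches, on either strand, to the interferon regulatory factor pair, which reads GAAA, 2 bases of any kind and GAAA again, and to GAGGAA, the core bound by PU.1 and other ETS factors. The Cybb window is chrX:9469275-9469574 on the minus strand and lies inside the span that the deposited table gives for the gene. The Cyba window is chr8:122432891-122433190 and the Ncf1 window is chr5:134229576-134229875, both also on the minus strand.
Cybb: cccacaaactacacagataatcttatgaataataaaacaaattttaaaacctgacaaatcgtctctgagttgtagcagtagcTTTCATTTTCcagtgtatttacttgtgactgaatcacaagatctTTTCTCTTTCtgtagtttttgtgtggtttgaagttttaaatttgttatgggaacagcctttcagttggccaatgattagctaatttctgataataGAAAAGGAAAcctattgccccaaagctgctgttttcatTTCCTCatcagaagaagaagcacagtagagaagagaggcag
Ncf1: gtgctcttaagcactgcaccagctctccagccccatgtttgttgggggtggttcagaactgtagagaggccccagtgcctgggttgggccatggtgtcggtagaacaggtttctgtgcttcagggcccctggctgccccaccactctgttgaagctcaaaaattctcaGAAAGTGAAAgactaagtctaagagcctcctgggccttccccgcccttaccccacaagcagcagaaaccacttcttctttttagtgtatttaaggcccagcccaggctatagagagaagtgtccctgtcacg
Cyba: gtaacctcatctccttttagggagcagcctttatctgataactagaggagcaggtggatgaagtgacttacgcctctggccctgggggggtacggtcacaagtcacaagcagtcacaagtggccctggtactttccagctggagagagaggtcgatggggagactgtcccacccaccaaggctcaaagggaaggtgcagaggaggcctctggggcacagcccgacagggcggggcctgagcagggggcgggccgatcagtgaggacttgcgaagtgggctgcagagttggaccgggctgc

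The Cybb window held 3 matches to the interferon regulatory factor pair, with first bases at -168, -124 and -29 from the start site, and 1 match to GAGGAA at position 10 after it. The Ncf1 window held 1 match to that pair at -82, and the Cyba window held neither motif. No match overlapped another. Among all 32851 promoters of the same length in the table, 3.44% held the pair and 28.3% held GAGGAA. An NF-κB motif, present in 8.46% of all promoters, and the antioxidant response element TGACNNNGC, present in 12.4%, had no match in the 3 windows. A match is a run of letters, a missing match says only that these letters are not in the window, and binding was not measured.

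Each library held between 14752400 and 17312255 reads on genes, recovered from the deposited FPKM values (read counts scaled by gene length and by library size), and the 6 subunits held between 1449 and 28960 reads per library. As a check on the labels, the cytokine gene Il1b averaged 0.0103 FPKM in control and 424 FPKM in LPS cells, and Hmox1, the heme oxygenase gene, averaged 76.4 FPKM with LPS and 728 FPKM with LPS + G-CDs. Of 8 macrophage markers, 7 had a group mean of at least 1 FPKM in every group and Mertk was at 0, with summed levels of 2549 to 3496 FPKM in control, 3721 to 3924 FPKM in LPS and 3110 to 5129 FPKM in LPS + G-CDs libraries. These sums mix markers whose means differed in opposite directions, named after their values were seen: Cd14 averaged 436 FPKM in control and 2292 FPKM in LPS cells, while Lyz2 averaged 1762 and 947 FPKM and Csf1r 451 and 202 FPKM. Ly6g, Elane and Mpo, which define neutrophils, the other main users of this oxidase, were at 0 in all 9 libraries, and the 6 neutrophil markers summed to at most 0.958 FPKM in control, 1.37 FPKM in LPS and 2.44 FPKM in LPS + G-CDs libraries. The markers of T and NK cells, B cells, fibroblasts, epithelial and endothelial cells summed to at most 1.21 FPKM per list in any library. A change in the number of cells and a change in RNA per cell cannot be told apart in bulk libraries.

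All 6 subunits were abundant transcripts, with group means between the 90.7 and the 99.0 percentile of the 11585 genes tested, and LPS changed their order. Per length, Cyba stood first in control cells at 255 ± 65.0 FPKM (SD, n = 3), followed by Rac2, Ncf1, Cybb, Ncf4 and Rac1. Only Ncf1 and Cybb were separated neighbours there, in that no library of the lower gene reached a library of the higher one. In LPS cells Cybb rose from the fourth to the first place at 350 ± 16.2 FPKM, above every library of the Rac2 gene in the second place. Rac2 and Cyba overlapped, Ncf1 stood apart from its neighbours on both sides, and Ncf4 and Rac1 overlapped at the end of the order. In LPS + G-CDs cells Cyba, Rac2 and Cybb overlapped one after the other, and Ncf1 was again apart from the genes above and below it.

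**Figure D1:**
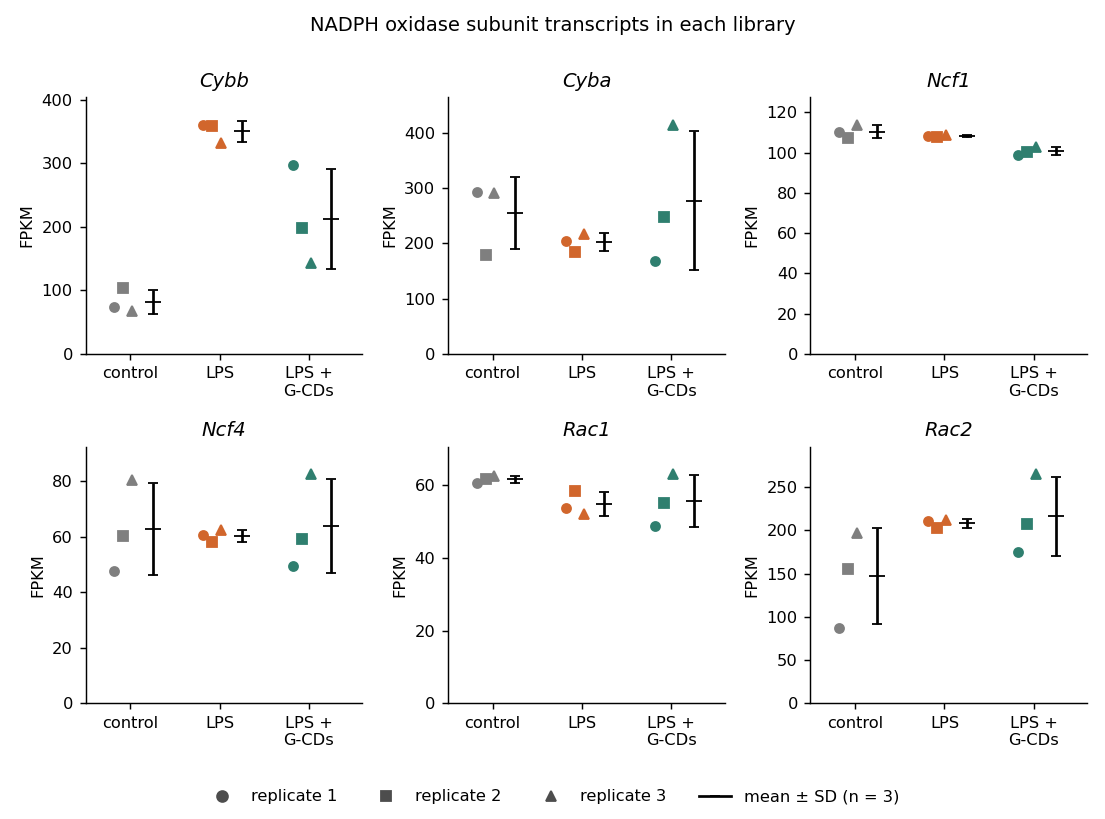
FPKM of each of the 6 oxidase subunits (vertical axes from 0) in the control, LPS and LPS + G-CDs libraries, with 1 symbol per replicate and the mean ± SD of the 3 libraries in black. The Cybb libraries of the 3 groups do not overlap, between 68.2 and 103 FPKM in control, 332 and 361 FPKM in LPS and 143 and 298 FPKM in LPS + G-CDs, whereas Ncf1 stays between 99.0 and 114 FPKM in all 9 libraries.

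Cybb, the gene of the catalytic subunit gp91phox (chromosome X of GRCm38, 9435252 to 9487771, minus strand), was at 74.3, 103 and 68.2 FPKM in control replicates 1, 2 and 3, at 361, 359 and 332 FPKM with LPS, and at 298, 198 and 143 FPKM with LPS + G-CDs. Every LPS library lay above every LPS + G-CDs library, and every LPS + G-CDs library lay above every control library. The mean was 4.28-fold higher with LPS than in control cells, and on the log2(FPKM + 1) scale Cybb rose by 2.11 (standard error 0.26, 95% interval 1.51 to 2.70, limma adjusted p = 0.000372). With LPS + G-CDs the mean was 2.6-fold that of control cells, with a log2 difference of 1.33 (95% interval 0.73 to 1.93, limma adjusted p = 0.00606). The difference between LPS + G-CDs and LPS was -0.78 (95% interval -1.38 to -0.18, unadjusted p = 0.0165) and did not pass the threshold after adjustment over all genes (limma adjusted p = 0.279). These comparisons share libraries, so the 3 values are not independent.

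The size of that difference depended on the LPS + G-CDs library. Without LPS + G-CDs replicate 1, which held the highest Cybb value of its group, it was -1.05 (limma adjusted p = 0.051), and without replicate 3, which held the lowest, it was -0.53 (limma adjusted p = 0.663). The rise over control cells with LPS alone was called in all 20 alternative analyses, with values from 1.85 to 2.28. The rise over control cells with LPS + G-CDs was called in 18 of 20 and was lost after rescaling to TPM, a common sum per library, with a value of 0.90 (limma adjusted p = 0.0809), and after quantile normalization, with 0.98 (limma adjusted p = 0.0905). The median of all genes in that comparison was -0.38 with TPM and -0.05 with quantile normalization.

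Cyba encodes p22phox, the partner that stabilises gp91phox and docks the organizer (chromosome 8, 122424776 to 122432930, minus strand). Its values were 293, 180 and 292 FPKM in control, 204, 184 and 216 FPKM in LPS and 168, 248 and 414 FPKM in LPS + G-CDs replicates 1, 2 and 3. The groups overlapped, and the LPS + G-CDs libraries spanned both the lowest and the highest value of the series. The log2 fold change was -0.30 with LPS against control (95% interval -1.03 to 0.43, limma adjusted p = 0.52) and 0.36 with LPS + G-CDs against LPS (95% interval -0.37 to 1.09, limma adjusted p = 0.508). Against LPS, the Cyba value was 0.67 without LPS + G-CDs replicate 1 and 0.02 without replicate 3. With LPS, Cyba was called lower after quantile normalization, at -0.60 (limma adjusted p = 0.0403), and was at -0.57 with TPM (limma adjusted p = 0.0815). The median of all genes with LPS was -0.06 and -0.23 in these 2 settings. As deposited, Cybb was called with LPS and Cyba was not, and the interval for Cyba does not overlap the one for Cybb in the LPS comparison.

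Ncf1, the gene of the organizer p47phox (chromosome 5, 134220053 to 134229625, minus strand), was at 110, 107 and 114 FPKM in control, 108, 108 and 109 FPKM in LPS and 99.0, 100.2 and 103 FPKM in LPS + G-CDs libraries. All 3 LPS + G-CDs libraries lay below all other libraries, yet the log2 fold change against LPS was -0.10 (95% interval -0.34 to 0.14) and did not pass the threshold (limma adjusted p = 0.564). The change with LPS was -0.03 (95% interval -0.27 to 0.21, limma adjusted p = 0.861). Against control, the LPS + G-CDs group differed by -0.13 (limma adjusted p = 0.415), and Ncf1 was called lower there with TPM, at -0.57 (limma adjusted p = 0.00933), and with quantile normalization, at -0.49 (limma adjusted p = 0.0281). In that comparison the median of all genes was -0.38 with TPM and -0.05 with quantile normalization.

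Ncf4 encodes p40phox, which binds a phosphoinositide on the phagosome membrane (chromosome 15, 78244801 to 78262580, plus strand). It was at 47.6, 60.2 and 80.6 FPKM in control, 60.5, 58.1 and 62.3 FPKM in LPS and 49.6, 59.2 and 82.5 FPKM in LPS + G-CDs replicates 1, 2 and 3. The 3 groups had nearly the same mean, and the libraries of 1 group differed more than the groups. The log2 fold changes of -0.03 with LPS against control (95% interval -0.54 to 0.49, limma adjusted p = 0.942) and 0.05 with LPS + G-CDs against LPS (95% interval -0.47 to 0.56, limma adjusted p = 0.906) both reversed in sign in some alternatives.

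Rac1 and Rac2 encode the small GTPases that switch the assembled oxidase on. Rac1 is made in nearly all cells and Rac2 mainly in blood cells. Rac2 (chromosome 15, 78559167 to 78572783, minus strand) was at 87.5, 156 and 197 FPKM in control, 210, 202 and 212 FPKM in LPS and 175, 208 and 265 FPKM in LPS + G-CDs replicates 1, 2 and 3. Every LPS library lay above every control library, but the control libraries differed among themselves more than 2-fold, and the log2 fold change of 0.58 (95% interval -0.06 to 1.22) did not pass the threshold (limma adjusted p = 0.157). It was 0.25 without control replicate 1 and 0.83 without control replicate 3. Against LPS, the LPS + G-CDs group differed by 0.03 (95% interval -0.61 to 0.67, limma adjusted p = 0.953).

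Rac1 (chromosome 5, 143503634 to 143528036, minus strand) was at 60.7, 61.6 and 62.5 FPKM in control, 53.6, 58.5 and 52.1 FPKM in LPS and 48.8, 55.2 and 62.9 FPKM in LPS + G-CDs replicates 1, 2 and 3. The LPS libraries were all below the control libraries, with a log2 fold change of -0.17 (95% interval -0.45 to 0.11) that did not pass the threshold (limma adjusted p = 0.342) as deposited. It passed after rescaling to TPM, at -0.44 (limma adjusted p = 0.0128), which moved the median of all genes to -0.23, and after quantile normalization, at -0.32 (limma adjusted p = 0.0465). Of the 50-base words of its longest transcript in GENCODE release M21, 55.0% also occur in Daglb, which overlaps it on the other strand. The library protocol describes no step that marks strand, so the share of reads that belongs to Rac1 is uncertain. As deposited, Daglb reached at most 6.37 FPKM in any library. For Ncf1 the shared words were 8.15%, nearly all with Gtf2ird2 on the other strand, which reached at most 6.29 FPKM. For Rac2 they were 1.34%, and for Cybb, Cyba and Ncf4 there were 0.

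Counted together, 1 of the 6 subunits was called with LPS against control at a limma adjusted p under 0.05, where 31.3% of all genes tested were called, 15.8% higher and 15.6% lower. In LPS + G-CDs against LPS, 0 of 6 were called with limma, against 0.492% of all genes, 0.25% higher and 0.242% lower. At an unadjusted p under 0.05 there was 1, Cybb, where 15.2% of all genes passed, and limma's voom on the recovered reads also called 0. In LPS + G-CDs against control 1 of 6 was called, against 25.3% of all genes, 12.8% higher and 12.4% lower. At an unadjusted p under 0.01 with a change over 1.5-fold the subunits called were again 1, 0 and 1 in the same order, where 23.1%, 2.49% and 18.9% of all genes passed. Groups did not overlap for 3 subunits with LPS against control, where the background was 52.5%, for 2 with LPS + G-CDs against LPS, where it was 27.9%, and for 2 with LPS + G-CDs against control, where it was 34.3%. With 6 genes, these shares were near or below those of all genes. The median log2 fold change of the 6 was -0.03 with LPS and 0.03 with LPS + G-CDs against LPS, and that of all genes tested was 0.02 in both. For the second comparison the median of the 6 was below 0 when LPS + G-CDs replicate 3 was left out (-0.12) or the gene-length trend was removed (-0.11), and 0.14 when LPS + G-CDs replicate 1 was left out. With TPM scaling the medians of the 6 were -0.30 and -0.14, where those of all genes were -0.23 and -0.14.

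**Figure D2:**
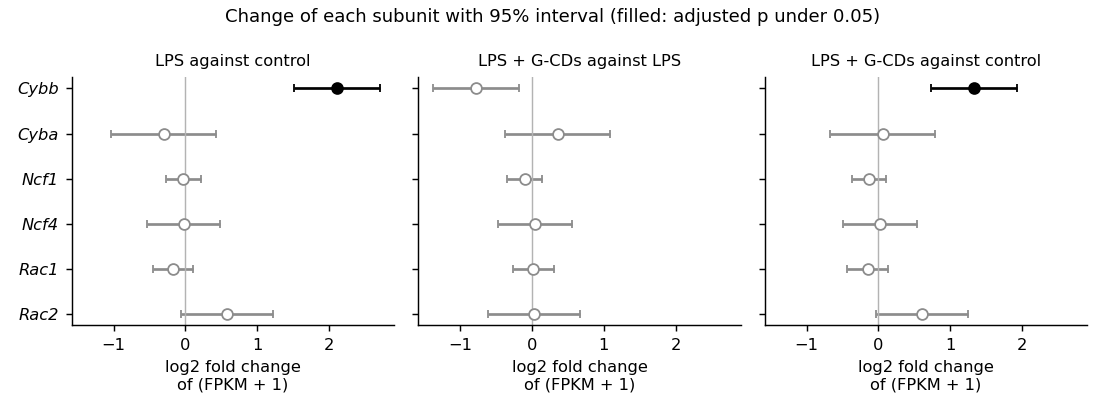
Log2 fold change of FPKM + 1 (horizontal axes) of each subunit in the 3 comparisons, with 95% intervals from limma. Filled points passed an adjusted p of 0.05, which only Cybb did, at 2.11 with LPS and 1.33 with LPS + G-CDs against control.

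Ratios between subunits of 1 library do not depend on how that library was scaled, but a spread tied to gene length does not cancel in them. The ratio of Cybb to Cyba was 0.254, 0.576 and 0.234 in control, 1.77, 1.95 and 1.53 in LPS, and 1.78, 0.796 and 0.346 in LPS + G-CDs replicates 1, 2 and 3. Cybb was thus below Cyba in every control library and above it in every LPS library. In the LPS + G-CDs group, replicate 1 was within the LPS range and replicate 3 within the control range. The log2 ratio was 2.42 higher with LPS than in control cells (exact permutation p = 0.1, the smallest that 3 against 3 can give, adjusted p = 0.3 over 9 ratio tests, two-sided). It differed by -1.14 between LPS + G-CDs and LPS (exact permutation p = 0.3, adjusted p = 0.54), and by -1.73 without LPS + G-CDs replicate 1 and -0.55 without replicate 3. This ratio sets the longest subunit, Cybb at 5808 bases, against the shortest, Cyba at 1039 bases. With the gene-length trend removed, Cybb changed by -0.69 and Cyba by 0.15 between LPS + G-CDs and LPS.

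For the GTPases, the ratio of Rac1 to Rac2 was 0.694, 0.395 and 0.317 in control, 0.255, 0.289 and 0.246 in LPS and 0.278, 0.266 and 0.238 in LPS + G-CDs libraries. Rac2 exceeded Rac1 in all 9 libraries, and the ratio was lower in all 6 libraries given LPS than in any control library. The log2 ratio was -0.75 with LPS against control (exact permutation p = 0.1, adjusted p = 0.3) and -0.01 with LPS + G-CDs against LPS (exact permutation p = 1). Without control replicate 1 the first of these was -0.43. The uncertainty of the Rac1 reads applies to these ratios. The ratio of Ncf1 to Ncf4 was 2.32, 1.78 and 1.41 in control, 1.79, 1.85 and 1.74 in LPS and 1.99, 1.69 and 1.25 in LPS + G-CDs libraries. The 3 groups overlapped, with exact permutation p-values of 1, 0.7 and 0.6 in the 3 comparisons.

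**Figure D3:**
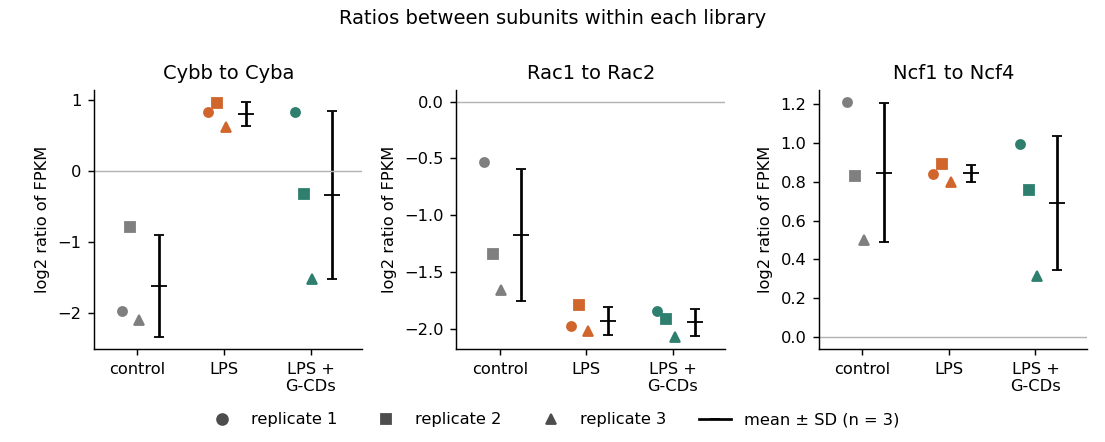
Log2 ratio of FPKM (vertical axes) between 2 subunits within each library, by group, with 1 symbol per replicate and the mean ± SD of 3 libraries. The Cybb to Cyba ratio lies between 0.62 and 0.96 in LPS libraries, between -2.10 and -0.80 in control libraries and from -1.53 to 0.83 in LPS + G-CDs libraries.

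Within the LPS + G-CDs group, the deviations of all genes from their group mean moved with gene length, and those of the subunits did so in part. Across all genes tested, Pearson's r between log length and the deviation of a gene from its group mean was 0.27 in LPS + G-CDs replicate 1 and -0.30 in replicate 3, 0.15, 0.13 and -0.25 in control replicates 1, 2 and 3, and between -0.01 and 0.01 in the LPS libraries. Cyba, the shortest subunit at 1039 bases, deviated by -0.62 in LPS + G-CDs replicate 1 and by 0.68 in replicate 3, where the 500 genes nearest in length had medians of -0.36 and 0.39. Ncf4, at 2020 bases, deviated by -0.32 and 0.40 beside medians of -0.27 and 0.27. Cybb, the longest at 5808 bases, deviated the other way, by 0.55 and -0.50, beside medians of 0.10 and -0.10 of genes of its length. Rac2, at 3103 bases, deviated by -0.28 and 0.31 beside medians of -0.10 and 0.11. Rac1, at 4496 bases, went against the genes of its length, with -0.18 and 0.18 beside medians of 0.011 and -0.024. Ncf1, at 3663 bases, deviated by at most 0.03 in this group. With the length trend removed from each library, the change of Cybb between LPS + G-CDs and LPS was -0.69 (limma adjusted p = 0.206) and that of Cyba was 0.15.

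**Figure D4:**
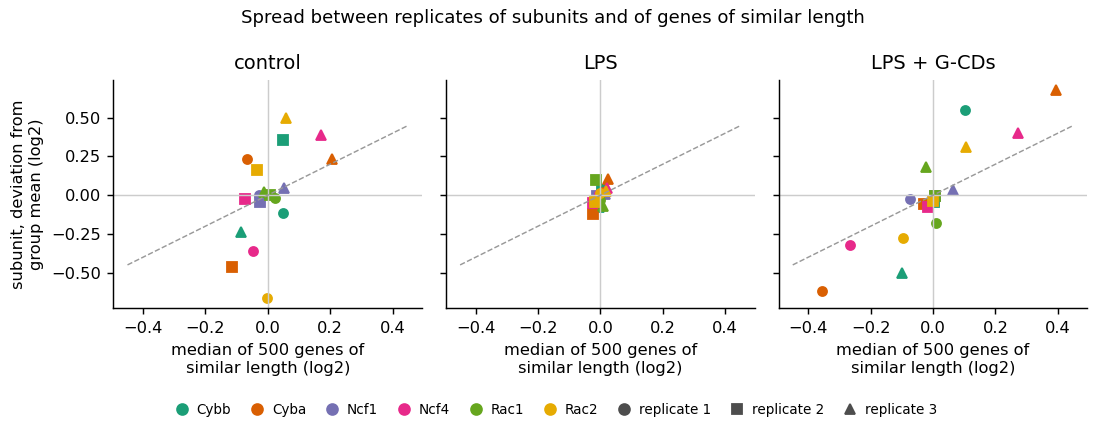
Deviation of each subunit from its group mean (vertical axes, log2) against the median deviation of the 500 genes nearest to it in length (horizontal axes, log2), per library, with the line of equality dashed. In LPS + G-CDs cells the points run from Cyba replicate 1 at -0.36 and -0.62 to Cyba replicate 3 at 0.39 and 0.68, Cybb lies off the line, and in LPS cells all points are near 0.

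The genes around the oxidase were read from 5 lists written for its assembly, activation and transcription. Among the partners that assemble, mature or hold the oxidase, 8 of 10 listed genes were tested, of which 1 rose and 0 fell with LPS, a comparison in which 31.3% of all genes tested were called, 15.8% higher and 15.6% lower. The gene that rose was Rap1b, a small GTPase close to the Rap1a that copurifies with the cytochrome, at 80.5 ± 2.09 FPKM in control and 295 ± 16.2 FPKM in LPS cells (SD, n = 3), and it rose by 1.86 on the log2 scale (limma adjusted p = 6.07e-06). The untested genes included the proton channel Hvcn1, named after its values were seen, which reached at most 0.142 FPKM. For the exchange factors that load Rac and the GAPs that switch it off, 15 of 19 were tested, and 2 rose and 2 fell with LPS. Abr, which has both activities, rose by 1.57 and the exchange factor Swap70 by 1.13 on the log2 scale, while Racgap1 fell by 0.70 (limma adjusted p = 0.00116, 8.63e-05 and 0.000655). The other gene that fell was Elmo2 at -0.62, named after its values were seen.

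Of the kinases and lipid enzymes that prime the oxidase, 15 of 17 were tested, with 3 higher and 2 lower with LPS, a share near the 31.3% of all genes. Mapk14, the p38α kinase that phosphorylates the organizer, fell by 1.04 and the kinase Pak1 by 0.99, and Prkcd, a protein kinase C that also phosphorylates it, rose by 0.93 (limma adjusted p = 0.000101, 0.000783 and 0.000417). The other 2 that rose were Prkca at 0.69 and Pak2 at 0.67, named after their values were seen. Among factors known to act on the Cybb promoter, 8 of 11 were tested, and 3 rose and 0 fell. Irf8, an interferon regulatory factor of the macrophage lineage, stood at 13.5 ± 0.758 FPKM in control and 56.9 ± 2.66 FPKM in LPS libraries (SD, n = 3), 4.22-fold higher (95% interval of the log2 difference 1.75 to 2.25, limma adjusted p = 2.36e-06). Whether Irf8 acted on Cybb in these cells was not tested. The coactivator Crebbp rose by 0.90 (limma adjusted p = 0.0418). In the list of other oxidase family genes and small GTPases, 3 of 12 were tested and Rac3 fell by 1.33 (limma adjusted p = 0.00384). The catalytic genes Nox1, Nox3, Nox4, Duox1 and Duox2, named after their values were seen, stayed at or below 0.328 FPKM in every library, so Cybb was the abundant catalytic subunit in these cells. With TPM scaling the calls with LPS went from 1 to 3 among the partners and from 3 to 2 among the promoter factors. With the length trend removed they went from 4 to 6 among the exchange factors and GAPs and from 5 to 6 among the kinases and lipid enzymes. They also went from 3 to 4 among the promoter factors and from 1 to 2 among the other family genes. Over all 11585 genes tested, the calls went from 3630 to 4062 with TPM and to 4373 with the length trend removed.

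With LPS + G-CDs against LPS, 0 genes of these 5 lists were called with limma or with voom, and at an unadjusted p under 0.05 there were 1 of 8, 5 of 15, 4 of 15, 2 of 8 and 0 of 3 in the order given above, beside the 15.2% of all genes. At an unadjusted p under 0.01 with a change over 1.5-fold, which 2.49% of all genes passed, there was 1, the Rac exchange factor Prex1, named after its values were seen, at -0.84 (unadjusted p = 0.00964, limma adjusted p = 0.249). All 15 tested exchange factors and GAPs had a log2 fold change below 0, with a median of -0.32 where all genes had 0.02 and 52.0% of all genes were above 0. This count and its alternatives were chosen once the data had been seen. With TPM scaling all 15 were below 0 and the median was -0.55, where that of all genes was -0.14. With the length trend removed, 11 of 15 were below 0 and the median was -0.06, and without LPS + G-CDs replicate 3 they were 12 of 15 with a median of -0.21. Irf8 was at 59.4, 54.1 and 57.4 FPKM in LPS and 38.8, 40.8 and 46.0 FPKM in LPS + G-CDs libraries, without overlap, a log2 fold change of -0.44 (95% interval -0.69 to -0.18, unadjusted p = 0.0037, limma adjusted p = 0.18). Abr differed by -0.68 (limma adjusted p = 0.289) and Prkcd by -0.37 (limma adjusted p = 0.269).

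**Figure D5:**
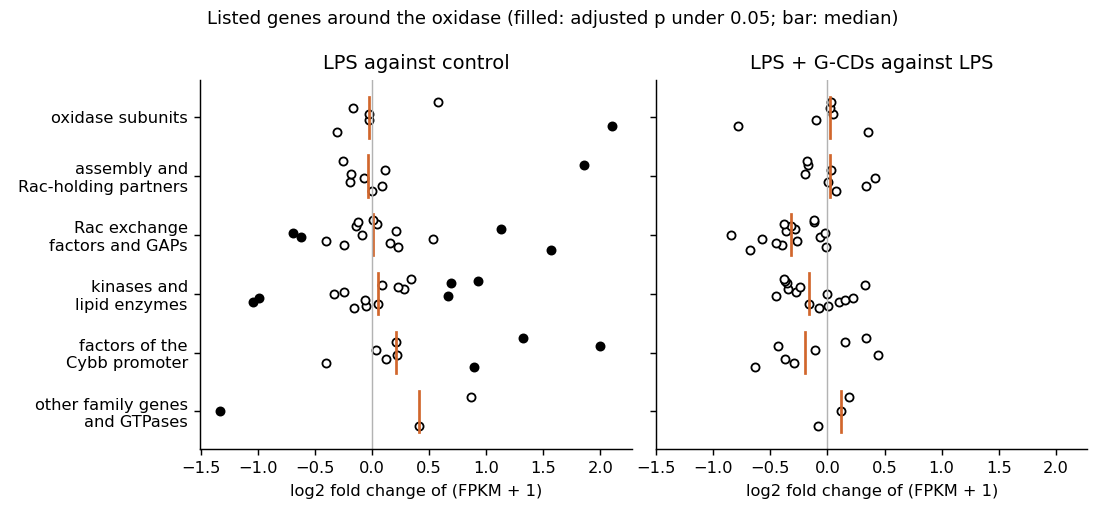
Log2 fold change of FPKM + 1 (horizontal axes) of the tested genes of 6 lists, with LPS against control on the left and LPS + G-CDs against LPS on the right. Each point is a gene, filled where its adjusted p was under 0.05, and the bar is the median of the list. Filled points appear with LPS in every list, and 0 appear with LPS + G-CDs against LPS.

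The genes most like each subunit were ranked by Pearson's r of log2(FPKM + 1) over the 9 libraries, a description that mixes group differences with the spread tied to gene length. For Cybb they were Trem1, a receptor that amplifies inflammatory signals in myeloid cells, at 0.998, the metal-responsive factor Mtf1 at 0.997 and the phosphoinositide phosphatase Inppl1 at 0.997. For Cyba they were Hspbp1 at 0.995, Galk1 at 0.992 and Fkbp8 at 0.992. Ncf1 followed Slc39a13, Map4k1 and Trip13 at 0.911, 0.91 and 0.907, and Ncf4 followed Dcps, Ppan and Atg7 at 0.978, 0.977 and 0.973. Rac1 followed Gm7324, Fancl and Bin3 at 0.944, 0.935 and 0.923, and Rac2 followed Pigf, Tmem39b and Mrpl39 at 0.989, 0.988 and 0.988. No subunit was among the 3 genes most like another. Between subunits, r ranged from -0.757 for Cybb and Rac1 to 0.687 for Ncf4 and Rac2, and for the membrane pair Cybb and Cyba it was -0.543.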

How the data were processed

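Poly-A selected RNA of RAW264.7 cells was sequenced on an Illumina instrument, in 3 control, 3 LPS and 3 LPS + G-CDs libraries, grouped by their titles. The authors deposited FPKM values per gene and library with gene coordinates and lengths, and the submitters' processing notes name GRCm38 (mm10). The aligner and counter are not given in the sources used here. All 9 columns of values matched a library.

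Multiplying FPKM by gene length gave whole multiples of 1 read in 100% of values (tolerance 0.05 reads), from which reads and depth were recovered. Genes with at least 1 FPKM in at least 3 libraries were kept (11585), transformed as log2(FPKM + 1), a scale that understates the change of low genes, and fitted with limma 3.58.1 in R 4.3.3 (trend, 1 model of 3 groups, two-sided, Benjamini-Hochberg over all genes, threshold 0.05). The steps were tested on simulated data. Subunit ratios were compared by exact permutation.

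The subunits and lists were chosen with earlier results of these data known. Named were the 6 subunits, listed genes called with G-CDs against LPS, the 3 largest non-overlapping calls per list with LPS, and the 3 genes most correlated with each subunit. Some results under this rule are not reported here. As a pairing check, departures from the group mean correlated at 0.103, 0.137 and 0.113 between LPS and control libraries of equal number. All exceed 0.1, which was taken as pairing, although the labels give a number no meaning. The main fit and the ratio tests did not use this pairing, and the replicate block was fitted as an alternative. Alternatives covered the pseudocount, filter, scaling, libraries fitted, trend, voom on reads, replicate block, gene-length trend and each library left out. Tables were made in Python 3.11.15 (pandas 2.3.3).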

Additional observations from a re-analysis of the deposited data

How the results depend on the processing

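With TPM scaling, the median change over the genes tested was -0.23 for LPS against control, -0.14 for LPS + G-CDs against LPS and -0.38 for LPS + G-CDs against control. TPM sets a common sum per library, so it also replaces the library sizes used in the deposited FPKM. With the replicate block no subunit call changed, and the genes called went from 3630 to 4104, from 57 to 53 and from 2927 to 3347 in the same order. The limma adjusted p of Cybb in LPS + G-CDs against LPS went from 0.279 to 0.162 with the block. That of Rac2 in LPS against control went from 0.157 to 0.08. Same-numbered LPS + G-CDs and LPS libraries correlated at 0.095, 0.08 and 0.143, each the highest for its library, and LPS + G-CDs and control at 0.28, 0.057 and 0.653, not each the highest, so these numbers are only shared.

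The subunits called with LPS against control went from 1 to 2 with TPM and 3 with quantile normalization (Cyba at -0.60 and Rac1 added). Over all 11585 genes tested, the calls there went from 3630 to 4062 and 3988. With LPS + G-CDs against control the subunits called went from 1 to 2 with TPM and 2 with quantile normalization. There Cybb was lost and Ncf1 (-0.57 and -0.49) and Rac1 (-0.59 and -0.40) were lower, while all genes called went from 2927 to 3979 and 3071. Leaving out 1 library gave 1 to 1 and 1 to 2 subunits in these comparisons. The second range arose because Rac2 (0.86, limma adjusted p = 0.0484) passed without control replicate 3, where 2959 genes were called. No subunit was called in LPS + G-CDs against LPS in any of the 20 alternatives.

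Genes called in LPS + G-CDs against LPS numbered 25 with a pseudocount of 0.1, 27 with TPM, 25 with the 6 libraries alone and 91 with the length trend removed, and ranged from 11 (without LPS + G-CDs replicate 2) to 256 (without LPS + G-CDs replicate 1) when 1 library was left out, with 14, 12 and 21 without LPS replicates 1, 2 and 3, 23 without control replicate 2 and 29 without LPS + G-CDs replicate 3. In LPS + G-CDs against control they numbered 1789 with the 6 libraries alone and ranged from 1914 (without LPS + G-CDs replicate 2) to 3245, and in LPS against control from 2478 to 4289.

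Uncalled changes that reversed in sign were, for LPS against control, Ncf4 at 0.17 without control replicate 3 and 0.00068 without LPS replicate 2. For LPS + G-CDs against LPS, TPM gave Ncf4 -0.12, Rac1 -0.15 and Rac2 -0.14, median-of-ratios gave Rac1 -0.0069, quantile normalization gave Ncf4 -0.063, Rac1 -0.085 and Rac2 -0.17, length removal gave Ncf4 -0.16 and Rac2 -0.072, leaving out LPS replicate 3 gave Rac1 -0.015, and leaving out LPS + G-CDs replicate 3 gave Ncf4 -0.15, Rac1 -0.072 and Rac2 -0.12. For LPS + G-CDs against control, Cyba was at -0.38 with TPM, -0.52 with quantile normalization, -0.19 with length removal, -0.18 without control replicate 2 and -0.28 without LPS + G-CDs replicate 3, and Ncf4 at -0.41, -0.24 and -0.21 in the first 3 of these, -0.16 without control replicate 1 and -0.18 without LPS + G-CDs replicate 3.

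With length removal the log2 ratio of Rac1 to Rac2 between LPS + G-CDs and LPS was 0.10 and that of Ncf1 to Ncf4 0.00075. When 1 library was left out, these ratios ran from -0.064 to 0.055 and from -0.31 to 0.034, and that of Ncf1 to Ncf4 from -0.18 to 0.18 with LPS against control and from -0.33 to 0.030 with LPS + G-CDs against control. Over the same omissions the fold changes of Ncf4 ran from -0.21 to 0.17, -0.15 to 0.21 and -0.18 to 0.22 in the 3 comparisons, those of Rac1 and Rac2 in LPS + G-CDs against LPS from -0.072 to 0.11 and -0.12 to 0.17, and that of Cyba in LPS + G-CDs against control from -0.28 to 0.37. The cause of these shifts was not tested. Each of the 6 subunits had at least 1449 reads per library.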
